A study of Mus musculus with 16 samples.

Results

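Cdkn1a, Cdkn1b and Cdkn1c, the genes of the cyclin-dependent kinase inhibitors p21, p27 and p57, were followed in hypothalamic RNA of fasted and fed male mice. All probes annotated with these 3 symbols were taken, which gave 3 of the 16593 named genes and 7 of the 25697 probes in the table, 3 for Cdkn1a, 3 for Cdkn1b and 1 for Cdkn1c. The genes were chosen by the log2 difference of Cdkn1a between fasted and fed mice in these same arrays, so its fasting differences are given as a description and without a test.

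Illumina mouse bead arrays measured the RNA of 16 samples in 4 groups of 4. The groups were AgRP-/- mice fasted for 30 h, AgRP-/- mice fed ad libitum, AgRP+/- mice fasted for 30 h and AgRP+/- mice fed ad libitum, on a background that the labels call mixed. AgRP, agouti-related peptide, is made by arcuate neurons and promotes feeding. Every mouse therefore lacked at least 1 copy of its gene, no wild-type mice were included, and the labels give no age. Whether the 4 arrays of a group come from 4 animals is not stated, so a p-value here reflects only array-to-array spread, part of which may be technical. No probe carried the symbol Agrp, so the genotypes could not be checked on the deleted gene.

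Values are log2 probe intensities as deposited. A probe was kept for testing when it exceeded 5.12, the median of all values in the table, in at least 4 of the 16 arrays, and 13662 probes were kept. All differences are fasted minus fed or AgRP-/- minus AgRP+/- on the log2 scale, with the standard error (SE) of a limma fit to all 16 arrays, and a probe was called at a Benjamini-Hochberg adjusted p under 0.05 over all kept probes. Pairs of arrays correlated between 0.989 and 0.995. Of 18 hypothalamic marker symbols, 11 had a kept probe, and their mean lay between 10.8 and 11.2 on every array. The pituitary hormone genes Gh and Prl stood out on AgRP-/- fed replicate 1 (6.14 and 5.17) and AgRP+/- fed replicate 2 (7.78 and 7.34). Gh was at most 5.05 and Prl at most 4.78 on the other arrays. Neither gene was kept, and of 9 pituitary symbols 2 others had a kept probe. The mean of those 2 was highest on an array of AgRP-/- fasted mice, a group with neither of the arrays high in Gh and Prl. It reached 9.08 in AgRP-/- fasted, 8.52 in AgRP-/- fed, 7.87 in AgRP+/- fasted and 8.47 in AgRP+/- fed mice. In whole hypothalamus, fewer cells of a type and less RNA per cell cannot be told apart.

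The 3 genes form the Cip/Kip family, whose proteins bind complexes of cyclins with cyclin-dependent kinases (CDKs) and hold cells before DNA replication. Cdkn1a is the classical transcriptional target of the tumour suppressor p53 and is also induced by glucocorticoids and by FoxO factors. Cdkn1b is controlled largely through degradation of its protein, and Cdkn1c is imprinted, with expression from the maternal copy. In the adult brain most neurons have left the cell cycle, and Cip/Kip transcripts are also found in cells that do not divide.

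The start regions of Cdkn1a are shown because the gene is the member with the large fasting difference and because p53 and Sp1, both known regulators of it, recognise letters found there. RefSeq (GRCm38.p6) gave 2 start windows for Cdkn1a and 1 for Cdkn1b, each of 300 bases, from 250 before to 50 after a start site. Motifs were searched on both strands in all 32851 windows of the table. In the Cdkn1a and Cdkn1b windows shown here, no match overlapped a match of another motif. In the first Cdkn1a window, chr17:29090729-29091028 on the plus strand, capitals mark a p53 core pair, CATG and CATG with 6 bases of any kind between, whose first base lies 48 bases before the start. In the second, chr17:29093519-29093818 on the plus strand, capitals mark 2 Sp1 boxes, GGGCGG, which begin 104 and 46 bases before the start. In the Cdkn1b window, chr6:134920151-134920450 on the plus strand, capitals mark 1 Sp1 box, 61 bases before the start.
Cdkn1a window 1: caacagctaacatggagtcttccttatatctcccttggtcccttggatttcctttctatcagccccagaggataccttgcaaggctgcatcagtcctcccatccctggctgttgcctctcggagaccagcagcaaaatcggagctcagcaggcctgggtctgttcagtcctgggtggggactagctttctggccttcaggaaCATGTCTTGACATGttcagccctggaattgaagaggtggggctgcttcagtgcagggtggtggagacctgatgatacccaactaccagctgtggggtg
Cdkn1a window 2: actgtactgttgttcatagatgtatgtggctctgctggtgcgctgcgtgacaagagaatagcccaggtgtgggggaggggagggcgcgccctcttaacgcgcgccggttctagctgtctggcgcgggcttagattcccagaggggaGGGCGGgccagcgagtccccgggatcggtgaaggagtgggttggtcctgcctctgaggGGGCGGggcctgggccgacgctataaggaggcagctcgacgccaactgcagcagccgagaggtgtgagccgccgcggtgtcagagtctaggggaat
Cdkn1b window: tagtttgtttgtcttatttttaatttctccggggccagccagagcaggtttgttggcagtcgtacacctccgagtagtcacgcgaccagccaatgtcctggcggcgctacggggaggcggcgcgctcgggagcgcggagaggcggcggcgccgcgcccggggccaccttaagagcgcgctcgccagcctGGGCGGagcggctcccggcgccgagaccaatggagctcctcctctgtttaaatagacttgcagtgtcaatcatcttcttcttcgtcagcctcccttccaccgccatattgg

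The p53 core pair was present in 0.712% of all windows and the Sp1 box in 35.7%. A glucocorticoid receptor half-site, TGTTCT, found in 19% of windows, its full palindrome (AGAACA and TGTTCT with 3 bases between), found in 0.00913%, and the FoxO motif GTAAACA, found in 3.65%, had no match in any of the 3 windows. These matches describe letters in 300 bases and say nothing of binding.

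Cdkn1a was higher in fasted than in fed mice of both genotypes with each of its 3 probes. The difference was 1.39 in AgRP-/- and 1.32 in AgRP+/- mice with the brightest probe, and the interval of the difference between these, given further on, is wide. Its brightest probe, ILMN_2634083, read 7.90, 8.21, 7.72 and 8.12 in AgRP-/- fasted mice, against 6.49, 6.62, 6.54 and 6.75 in AgRP-/- fed mice. The lowest fasted array thus lay well above the highest fed array, and each group was tight. The same probe read 9.08, 8.56, 7.27 and 8.08 in AgRP+/- fasted mice, against 6.75, 6.81, 7.46 and 6.71 in AgRP+/- fed mice. Here the groups overlapped through 1 array on each side: fasted replicate 3 was low and fed replicate 3 was high, while the other 3 fasted arrays lay above all fed arrays.

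The group means of ILMN_2634083 were 7.99 ± 0.22 in AgRP-/- fasted, 6.60 ± 0.11 in AgRP-/- fed, 8.25 ± 0.77 in AgRP+/- fasted and 6.93 ± 0.35 in AgRP+/- fed mice (SD, n = 4 each). Fasted minus fed was 1.39 (SE 0.26) in AgRP-/- mice, a 2.61-fold higher intensity, and 1.32 (SE 0.26) in AgRP+/- mice, 2.49-fold higher. Averaged over the genotypes it was 1.35 (SE 0.18), or 2.55-fold. The largest mean belonged to AgRP+/- fasted mice, followed by AgRP-/- fasted, AgRP+/- fed and AgRP-/- fed mice. The gaps between the 2 fasted groups (0.26) and between the 2 fed groups (0.33) were smaller than the SD of the AgRP+/- group of each pair, whereas the gap between AgRP-/- fasted and AgRP+/- fed mice (1.05) exceeded both SDs without overlap.

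**Figure D1:**
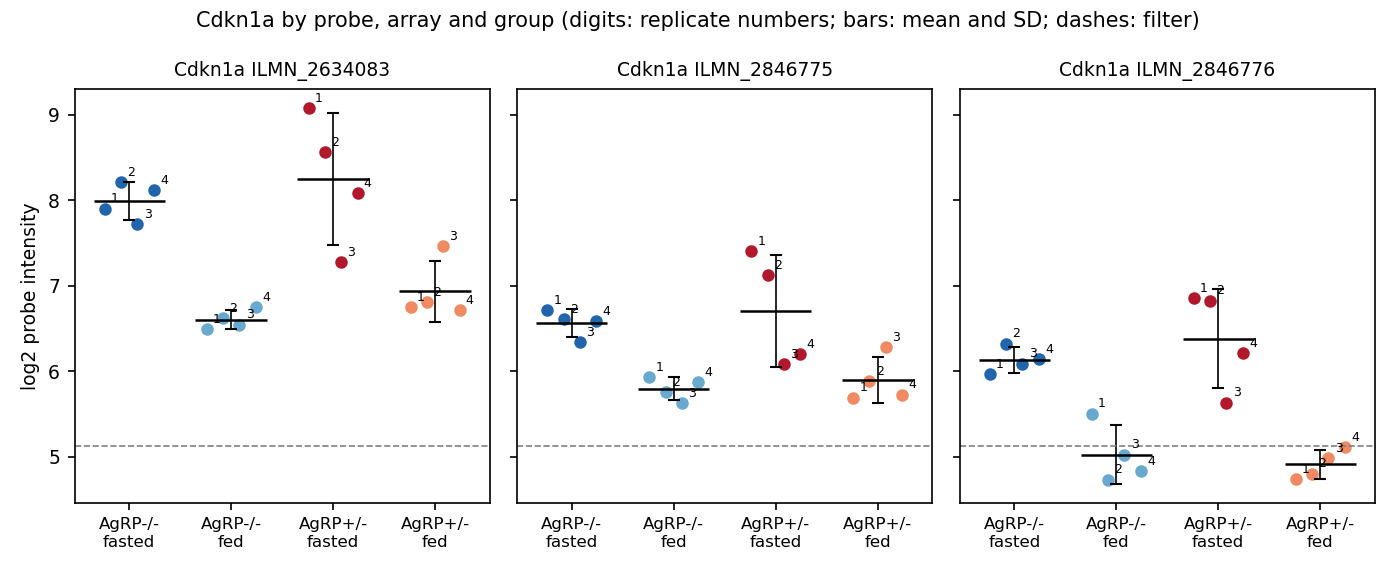
Log2 intensity of the 3 Cdkn1a probes on each of the 16 arrays by group, with replicate numbers beside the points, group mean and SD as bars and the filter at 5.12 as a dashed line. Fasted arrays lie above fed arrays of the same genotype except AgRP+/- replicates 3 of ILMN_2634083 and the overlap of AgRP+/- arrays of ILMN_2846775, and most fed arrays of ILMN_2846776 lie under the filter.

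The other probes gave the same direction with other sizes. ILMN_2846775 read 6.72, 6.61, 6.34 and 6.58 in AgRP-/- fasted mice, against 5.93, 5.75, 5.62 and 5.87 in AgRP-/- fed mice, which did not overlap. It read 7.40, 7.12, 6.08 and 6.20 in AgRP+/- fasted mice, against 5.69, 5.88, 6.28 and 5.73 in AgRP+/- fed mice, where fed replicate 3 exceeded fasted replicates 3 and 4. Its difference was 0.77 (SE 0.23) in AgRP-/- and 0.81 (SE 0.23) in AgRP+/- mice, and the average of 0.79 was smaller by 0.56 than that of ILMN_2634083.

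ILMN_2846776 read 5.96, 6.32, 6.09 and 6.14 in AgRP-/- fasted mice, against 5.50, 4.73, 5.02 and 4.83 in AgRP-/- fed mice. In AgRP+/- mice it read 6.86, 6.83, 5.63 and 6.21 after fasting, against 4.74, 4.80, 4.98 and 5.11 in the fed state. Fasted and fed arrays overlapped in neither genotype, but the probe lay at or below the filter on 7 of the 8 fed arrays and was kept through the fasted arrays. With fed values under the filter set to the filter, its fasting difference was at least 0.91 in AgRP-/- mice, where 1 of 4 fed arrays exceeded the filter, and at least 1.26 in AgRP+/- mice, where 0 did. The differences of the values as deposited were 1.11 (SE 0.22) in AgRP-/- and 1.47 (SE 0.22) in AgRP+/- mice.

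Counted over the 3 probes, fasted arrays lay above all fed arrays with 3 of 3 in AgRP-/- mice, with 1 of 3 in AgRP+/- mice and with 1 of 3 over both genotypes together, the single probe being the dim ILMN_2846776. Among all kept probes, 4.07%, 3.32% and 0.571% did so in the same direction, but the choice of the gene used these contrasts and nothing is read from the counts. The files do not say which stretch of the transcript each probe reads, and levels of different probes were not compared.

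With the groups pooled, where the widely spread AgRP+/- fasted arrays weigh most, the 3 probes moved together, though not in every group. After subtraction of the group means, their Pearson correlations over the 16 arrays were 0.892 for ILMN_2634083 with ILMN_2846775, 0.701 for ILMN_2634083 with ILMN_2846776 and 0.729 for ILMN_2846775 with ILMN_2846776, and without that subtraction they were 0.950, 0.915 and 0.891. The probes share the RNA and hybridisation of each array. In AgRP+/- fasted mice all 3 were highest on replicate 1 and lowest on replicate 3, with deviations from the group mean of 0.83 and -0.98 for ILMN_2634083, 0.70 and -0.62 for ILMN_2846775, and 0.47 and -0.75 for ILMN_2846776. AgRP+/- fed replicate 3 stood 0.53 above its group mean with ILMN_2634083, 0.38 with ILMN_2846775 and 0.07 with ILMN_2846776, so its high value was shared by the 2 brighter probes. In AgRP-/- fed mice the probes did not move together. Replicates 1 to 4 deviated there by -0.11, 0.02, -0.06 and 0.15 with ILMN_2634083. With the dim ILMN_2846776 the same arrays deviated by 0.48, -0.29, 0.002 and -0.19. Without both AgRP+/- arrays numbered 3, an omission chosen after their values were seen, the AgRP+/- difference of ILMN_2634083 was 1.82 (SE 0.19).

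The genotypes were compared by tests, since the gene was chosen by its fasting difference and not by genotype. These tests are not fully independent of that choice. The interaction is the difference between the 2 fasting differences, and the genotype comparisons use the same arrays. With ILMN_2634083, AgRP-/- minus AgRP+/- was -0.26 in fasted mice (95% interval -0.80 to 0.28, limma adjusted p = 0.859) and -0.33 in fed mice (-0.87 to 0.21, adjusted p = 0.999). Its fasting difference was larger in AgRP-/- than in AgRP+/- mice by 0.07 (-0.69 to 0.83, adjusted p = 0.9995), an interval that leaves room for a change of more than 1.5-fold either way. ILMN_2846775 gave an interaction of -0.04 (-0.72 to 0.63, adjusted p = 0.9995). Neither of these probes was called for genotype or interaction. ILMN_2846776 was read for genotype in fasted mice alone (-0.25, 95% interval -0.72 to 0.21, not called by limma), since 7 of its 8 fed values lay at or under the filter. In these contrasts 0.0146% of all kept probes were called in fasted mice, 0.00732% in fed mice and 0% for the interaction (0.0293% for genotype averaged over feeding states, and 371 probes had an unadjusted interaction p under 0.05). Without both AgRP+/- arrays numbered 3 the interaction of ILMN_2634083 turned to -0.43 (SE 0.25).

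**Figure D2:**
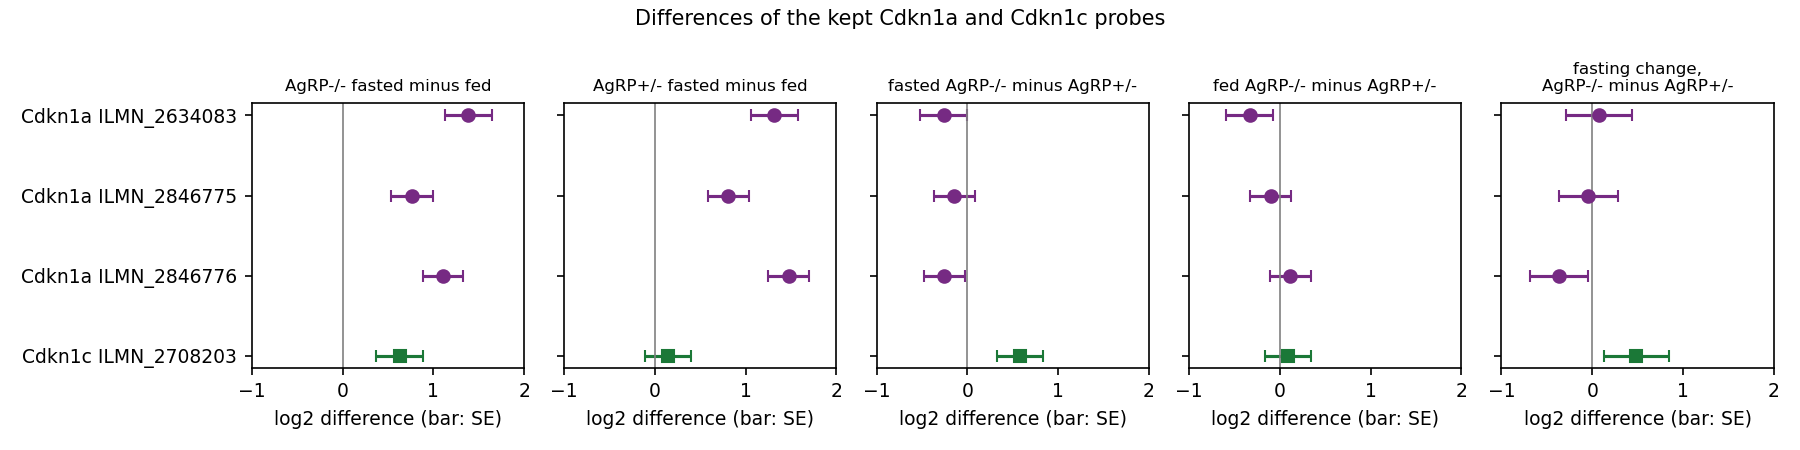
Log2 differences (points, with SE bars) of the 3 Cdkn1a probes and the Cdkn1c probe for fasting in each genotype, for genotype in each feeding state, and for the difference between the 2 fasting changes. The fasting differences of ILMN_2634083 and ILMN_2846775 run from 0.77 to 1.39 and their genotype and interaction differences from -0.33 to 0.07, while values of ILMN_2846776 that involve fed mice rest on arrays under the filter.

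Transcripts listed as markers of midbrain dopamine neurons moved with feeding state in the same samples. The cells or region they came from were not tested. Of 11 symbols of midbrain dopamine neurons, 8 had a kept probe and 5 of these were called higher in fasted mice when the genotypes were averaged, against 2.23% of all kept probes. Their mean ran from 6.99 to 7.22 in AgRP-/- fasted, 5.86 to 6.67 in AgRP-/- fed, 6.25 to 7.27 in AgRP+/- fasted and 6.11 to 6.46 in AgRP+/- fed mice. When the model held the averaged level of 3 of them (Slc6a3, Chrna6 and Th) as a further term, the fasting difference of ILMN_2634083 was 1.12 (SE 0.35) in AgRP-/- and 1.13 (SE 0.30) in AgRP+/- mice. That of ILMN_2846775 was 0.39 (SE 0.29) in AgRP-/- and 0.56 (SE 0.25) in AgRP+/- mice. That of ILMN_2846776 was 0.75 (SE 0.29) in AgRP-/- and 1.24 (SE 0.25) in AgRP+/- mice. The part of these transcripts in the Cdkn1a difference was not tested further.

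Cdkn1c passed no test in any contrast, and its probe, ILMN_2708203, was well above the filter on all 16 arrays. It read 9.46, 9.50, 8.96 and 8.58 in AgRP-/- fasted mice, against 7.94, 8.60, 9.15 and 8.30 in AgRP-/- fed mice. Fed replicates 2 and 3 lay within the fasted range, and the groups overlapped. In AgRP+/- mice it read 8.98, 8.65, 8.43 and 8.15 after fasting, against 8.47, 7.85, 8.34 and 8.96 in the fed state, with nearly complete overlap.

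The group means of Cdkn1c were 9.13 ± 0.44 in AgRP-/- fasted, 8.50 ± 0.51 in AgRP-/- fed, 8.55 ± 0.35 in AgRP+/- fasted and 8.41 ± 0.45 in AgRP+/- fed mice (SD, n = 4 each). AgRP-/- fasted mice came first by a gap of 0.58, larger than the SDs of both groups it separates but with overlapping arrays, and the means of the other 3 groups differed by less than their SDs. Fasted minus fed was 0.63 in AgRP-/- mice (95% interval 0.10 to 1.16, limma adjusted p = 0.302) and 0.14 in AgRP+/- mice (-0.39 to 0.68, adjusted p = 0.875). AgRP-/- minus AgRP+/- was 0.58 in fasted mice (0.04 to 1.11, adjusted p = 0.694) and 0.09 in fed mice (-0.44 to 0.62, adjusted p = 0.999). The interaction was 0.49 (-0.27 to 1.24, adjusted p = 0.9995). Unadjusted p was under 0.05 for fasting in AgRP-/- mice (0.0232), for genotype in fasted mice (0.0354) and for fasting averaged over genotypes (0.0451, with a difference of 0.39). Of the 13662 kept probes, 1780, 939 and 2756 passed the same unadjusted cut in these contrasts, in that order. Cdkn1c was thus called by limma in 0 contrasts, where fasting called 0.388% of all kept probes in AgRP-/- and 0.754% in AgRP+/- mice. With the dopamine neuron term in the model, its fasting difference in AgRP-/- mice was 0.36 (SE 0.34, adjusted p = 0.841).

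Markers of mural and meningeal cells varied with Cdkn1c from array to array. The mean of the 11 kept symbols of 14 ran from 7.0 to 7.80 in AgRP-/- fasted, 6.96 to 7.85 in AgRP-/- fed, 6.78 to 7.42 in AgRP+/- fasted and 6.68 to 7.57 in AgRP+/- fed mice. The AgRP-/- fed array with the highest Cdkn1c, replicate 3, also had the highest marker mean of all 16 arrays. None of the 11 was called for fasting averaged over genotypes. With this mean as a covariate, chosen after the values were seen, the Cdkn1c fasting difference was 0.30 (SE 0.15, adjusted p = 0.405) in AgRP-/- and 0.17 (SE 0.14, adjusted p = 0.676) in AgRP+/- mice, and the difference between the genotypes in fasted mice was 0.12 (SE 0.16, adjusted p = 0.929).

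**Figure D3:**
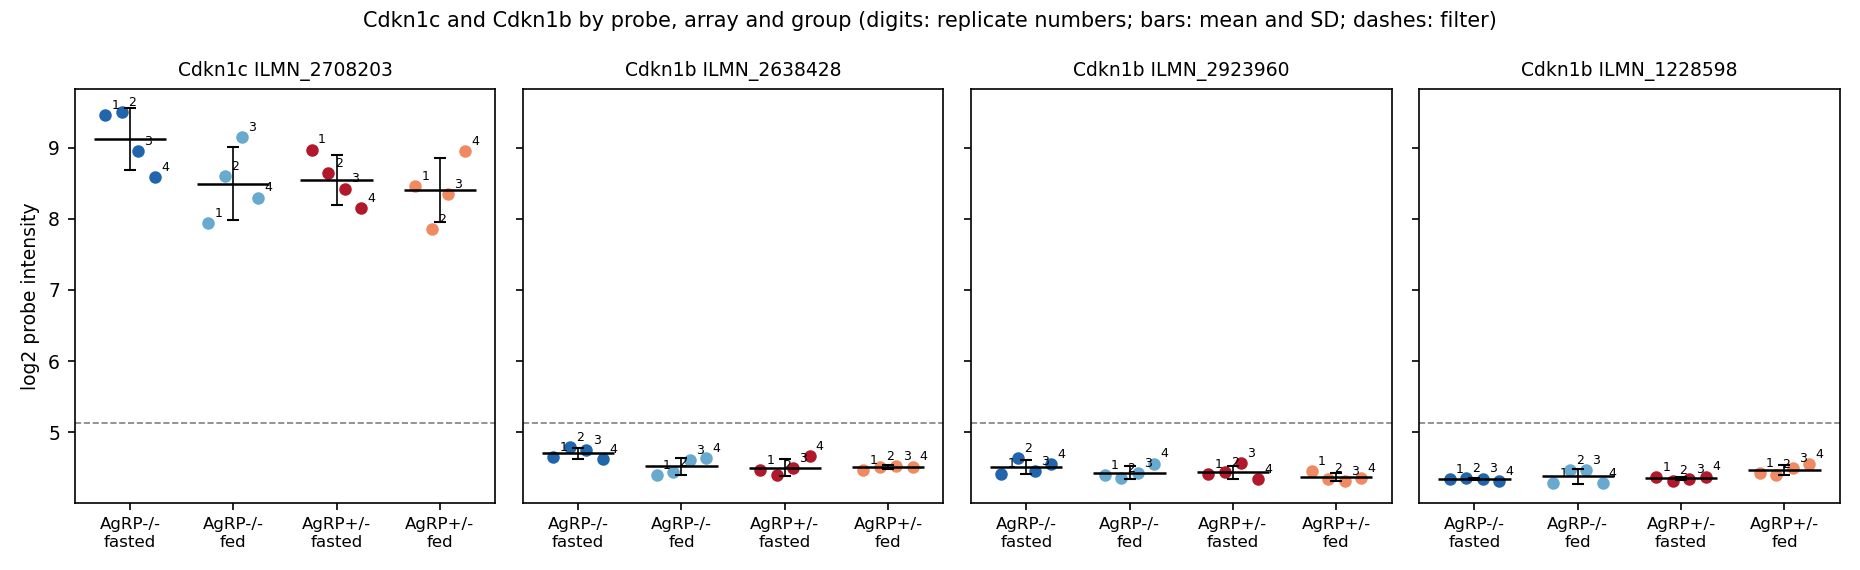
Log2 intensity of the Cdkn1c probe and the 3 Cdkn1b probes on each array by group, with replicate numbers, group mean and SD, and the filter at 5.12 as a dashed line. Cdkn1c runs from 7.85 to 9.50 with overlapping groups, and all Cdkn1b values lie between 4.28 and 4.79, under the filter.

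Cdkn1b was not measured above the dim part of the scale. Its 3 probes ranged from 4.39 to 4.79 (ILMN_2638428), 4.31 to 4.63 (ILMN_2923960) and 4.28 to 4.55 (ILMN_1228598), and none exceeded the filter on any array, so 0 of 3 were tested. The mean of ILMN_2638428 was 4.70 ± 0.08 in AgRP-/- fasted, 4.52 ± 0.12 in AgRP-/- fed, 4.50 ± 0.12 in AgRP+/- fasted and 4.50 ± 0.03 in AgRP+/- fed mice (SD, n = 4 each). In the same order of groups, ILMN_2923960 averaged 4.51 ± 0.10, 4.43 ± 0.09, 4.44 ± 0.09 and 4.36 ± 0.06. ILMN_1228598 averaged 4.34 ± 0.02, 4.37 ± 0.11, 4.35 ± 0.03 and 4.47 ± 0.07, so AgRP-/- fasted mice were highest with the first 2 probes and lowest with ILMN_1228598. These values are too close to the lowest value in the table, 4.21, to say whether the transcript was present. Of the 7 probes, 4 were thus kept, those of Cdkn1a and Cdkn1c.

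The genes whose values over the 16 arrays were most like those of ILMN_2634083 were found by Pearson correlation among 9529 other genes. In order they were Mfsd2a (0.959), Itgad (0.951), Hr (0.930), Cbs (0.924), Pnpla2 (0.920), Mertk (0.916), Plin4 (0.914), Lrrc8a (0.910), Cyp4f15 (0.902) and Pglyrp1 (0.898). Mfsd2a encodes a lysophospholipid transporter of brain endothelium, Pnpla2 the adipose triglyceride lipase and Plin4 a coat protein of lipid droplets. Hr encodes the corepressor hairless, Mertk a receptor tyrosine kinase of phagocytic cells and astrocytes, Cbs cystathionine beta-synthase, and Lrrc8a a subunit of volume-regulated anion channels. Itgad encodes an integrin subunit of leukocytes, Cyp4f15 a cytochrome P450 and Pglyrp1 a protein that binds bacterial peptidoglycan. The measure is a description over points that share arrays and the contrast of feeding state.

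All 10 were higher after fasting in both genotypes, which likeness to Cdkn1a brings with it. Itgad read 4.53 to 4.71 in AgRP-/- fed and 4.73 to 4.94 in AgRP+/- fed mice, under the filter on every fed array. It was kept through its fasted arrays, so the size of its rise and its correlation rest partly on dim values. Mfsd2a, the nearest, read 10.74, 10.72, 10.52 and 10.77 in AgRP-/- fasted mice, against 9.62, 9.83, 9.71 and 9.89 in AgRP-/- fed mice. In AgRP+/- mice it read 11.14, 10.94, 10.26 and 10.38 after fasting, against 9.61, 9.84, 9.94 and 9.72 in the fed state. Fasted and fed arrays did not overlap, and AgRP+/- fasted replicates 1 and 3 were again the extremes of their group.

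Plin4 had the largest difference of the 10, 3.28 in AgRP-/- and 3.48 in AgRP+/- mice (SE 0.27 each), and Pnpla2 the smallest in AgRP+/- mice, 0.53 (SE 0.11). AgRP+/- fasted replicate 3 was the lowest and replicate 1 the highest of its group for 10 of the 10 genes, against 24.3% and 25% of all 9530 kept genes, though the correlation that chose them uses these arrays. When the group means were subtracted first, 4 of the 10 (Mfsd2a, Hr, Pnpla2 and Itgad) stayed among the 10 most alike, and 6 did with Spearman correlation. Of the 10, 3 (Cbs, Cyp4f15 and Plin4) lie on chromosome 17 as Cdkn1a does, which holds 4.99% of the kept genes. RefSeq start windows were found for 8 of the 10, of which 6 held an Sp1 box and 0 the p53 core pair. The glucocorticoid half-site, its full palindrome and the FoxO motif were found in 0 of the 8. Of all windows, 35.7% held an Sp1 box, 19% the half-site, 3.65% the FoxO motif and 0.712% the p53 core pair. These shares are per window and the counts per gene, which may have several windows, so nothing is read from the counts.

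**Figure D4:**
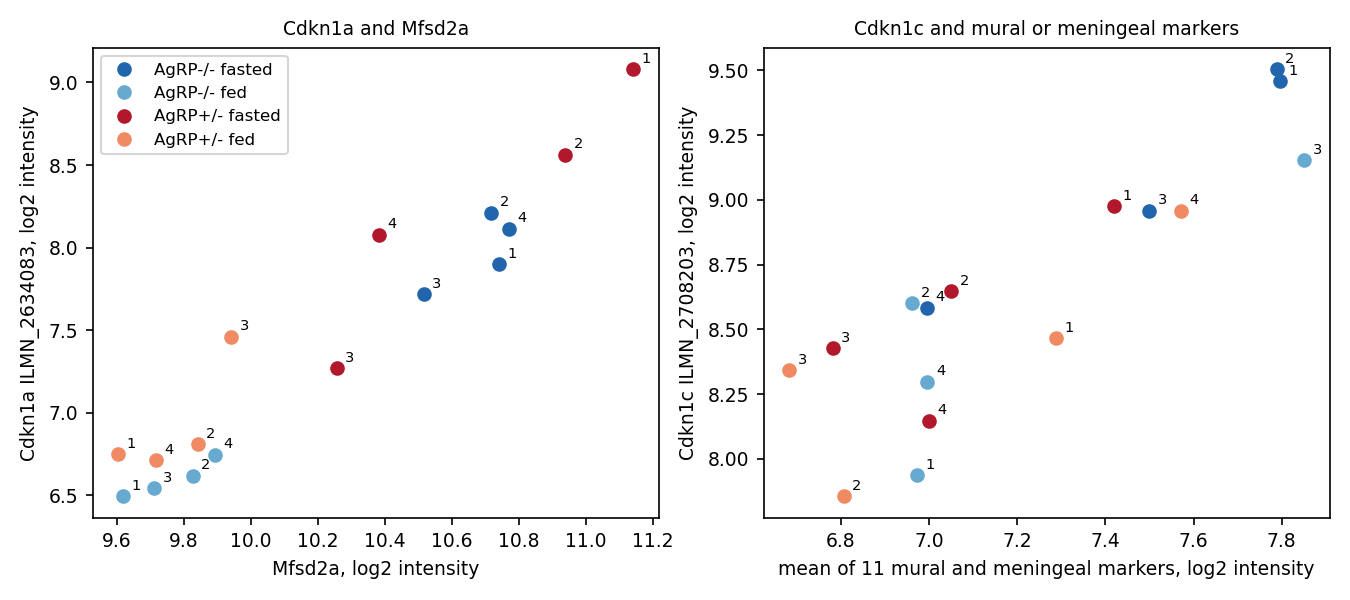
Left, Cdkn1a (ILMN_2634083) against Mfsd2a, and right, Cdkn1c against the mean of 11 mural and meningeal markers, all as log2 intensity with 1 point per array and its replicate number. On the left, fasted arrays lie at higher Mfsd2a than all fed arrays, and on the right, groups mix and arrays with a high marker mean have high Cdkn1c.

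For Cdkn1c the most alike genes were C2 (0.944), Nbl1 (0.942), Serping1 (0.938), Anxa3 (0.936) and Slc6a12 (0.935). When group means were subtracted, 1 of the 5 stayed among the most alike. Their correlations remained high, at 0.956 (C2), 0.926 (Nbl1), 0.920 (Serping1), 0.924 (Anxa3) and 0.904 (Slc6a12), so it was the ranking that moved. C2 and Serping1 encode a component and an inhibitor of the complement system, Nbl1 a secreted antagonist of bone morphogenetic proteins, and Slc6a12 a betaine and GABA transporter. None of the 5 was called for fasting in either genotype. Slc6a12 showed the widest spread, with 8.92, 9.22, 8.14 and 6.51 in AgRP-/- fasted mice, against 4.87, 5.76, 8.18 and 5.39 in AgRP-/- fed mice. Its fed replicate 3 reached the fasted range, as that array did for Cdkn1c. No likeness was computed for Cdkn1b.

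The other genes of the pathway were read from 10 lists, by gene and without the 3 inhibitors themselves. Fasting averaged over the genotypes called 4.19% of all kept probes, 2.23% higher and 1.95% lower, with a median difference of -0.0014 over all kept probes. Counts for each list stand against these shares, and the lists were chosen with earlier results of these arrays known.

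The glucocorticoid responsive genes, which Cdkn1a belongs to, were the list with the most calls. Of 20 kept members, 11 were called higher in fasted mice and 0 lower, with a median difference of 0.50. They were Plin4 (3.38), Sult1a1 (1.68), Sgk1 (0.97), Mfsd2a (0.91), Angptl4 (0.88), Mertk (0.70), Pdk4 (0.67), Fam107a (0.53), Mt2 (0.51), Fkbp5 (0.51) and Mt1 (0.29). Sgk1 and Fkbp5, a kinase and a chaperone of the glucocorticoid receptor, are textbook glucocorticoid targets, and Pdk4 restrains pyruvate oxidation. Per1 (0.09, adjusted p = 0.638) and Dusp1 (0.03, adjusted p = 0.896), also glucocorticoid targets, were among the 9 not called. The call of Mt2 was lost in 12 of the 16 fits that each leave out an array (0.41 to 0.59, adjusted p up to 0.0917), and those of the other 10 were kept in all 16. By genotype, 5 were called higher in AgRP-/- and 7 in AgRP+/- mice (against 0.271% and 0.571% of all kept probes), and in the model with the dopamine neuron term 3 of the 20 were called in the average, against 0.242% of all kept probes in that model. Among those no longer called there, Angptl4 differed by 0.82 (adjusted p = 0.0566), Mertk by 0.74 (adjusted p = 0.0619), Pdk4 by 0.71 (adjusted p = 0.136) and Mt2 by 0.25 (adjusted p = 0.637). In AgRP+/- fasted mice replicate 3 was the lowest array for 12 of the 20 genes and replicate 1 the highest for 12. Among all kept genes the shares were 24.3% and 25%. Mural and meningeal markers gave 6 of 11 for both and neuronal markers 1 of 7 for both, so the pattern was not particular to glucocorticoid responsive genes.

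The p53 targets had 1 call among 23 kept genes, higher in fasted mice, with a median difference of 0.04. Sesn1, which restrains growth signalling through mTOR, rose by 0.33 (SE 0.06, limma adjusted p = 0.00543). It averaged 10.11 ± 0.08 in AgRP-/- fasted, 9.79 ± 0.04 in AgRP-/- fed, 10.16 ± 0.11 in AgRP+/- fasted and 9.83 ± 0.21 in AgRP+/- fed mice (SD, n = 4 each). Mdm2, which encodes the ubiquitin ligase of p53, differed by -0.03 (SE 0.05, adjusted p = 0.772) and Ccng1, cyclin G1, by 0.03 (SE 0.07, adjusted p = 0.861), both long known p53 targets. The call of Sesn1 was lost in the model with the dopamine neuron term (0.38, adjusted p = 0.0831).

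Among transcription factors known to act on Cdkn1a, 1 of 17 was called higher and 1 lower, with a median of 0.08. Foxo1, a factor restrained by insulin signalling, rose by 0.32 (SE 0.08, limma adjusted p = 0.024). Foxo1 no longer passed when AgRP-/- fasted replicate 3 (0.29, adjusted p = 0.054), AgRP-/- fed replicate 3 (0.30, 0.0508) or AgRP+/- fed replicate 1 (0.29, 0.0511) was left out. Egr1, an immediate early gene, fell by 0.41 on the log2 scale (SE 0.08, adjusted p = 0.00937), and in AgRP-/- mice alone by 0.72 (adjusted p = 0.00598), while its interaction was not called. It averaged 10.63 ± 0.09 in AgRP-/- fasted, 11.35 ± 0.13 in AgRP-/- fed, 11.43 ± 0.27 in AgRP+/- fasted and 11.53 ± 0.24 in AgRP+/- fed mice (SD, n = 4 each). In fasted mice AgRP-/- minus AgRP+/- was -0.81 for Egr1 (adjusted p = 0.0121), and it was the only gene of the 10 lists called for genotype. That call was lost without AgRP-/- fasted replicate 1 (-0.80, adjusted p = 0.0732), replicate 2 (-0.79, 0.0783) or replicate 4 (-0.80, 0.068). It was also lost without the intensity trend of the model (adjusted p = 0.132) and with the mural and meningeal covariate (-0.75, 0.113). The call of Egr1 for genotype averaged over feeding states (-0.50, adjusted p = 0.0395) was lost in 9 of the 16 fits that each leave out an array (adjusted p up to 0.128). Several alternatives described below also lost it. Among them were no filter (adjusted p = 0.066), the stricter filter (0.0704), no trend (0.173), array weights (0.0561) and the Actb covariate (0.14). With the dopamine neuron term, the fasting difference of Egr1 averaged over genotypes was -0.20 (adjusted p = 0.465), and -0.47 in AgRP-/- mice (adjusted p = 0.362). The genotype difference in fasted mice was then -0.68 (adjusted p = 0.0931).

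Other growth arrest and stress genes had 3 calls higher and 0 lower among 14, with a median of 0.11. Txnip, an inhibitor of thioredoxin, rose by 0.57 (SE 0.13), Ddit3, the stress factor CHOP, by 0.43 (SE 0.09) and Ndrg1, a gene induced by hypoxia, by 0.24 (SE 0.06), with limma adjusted p-values of 0.0161, 0.0109 and 0.0367. Gadd45a (0.04) and Btg1 (-0.01) were not called. Without each array in turn the calls of Txnip and Ddit3 held and that of Ndrg1 was lost in 9 of 16 fits (0.20 to 0.26).

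The cyclins, kinases and other proteins that act with the inhibitors were read from 4 lists. Their counts at an unadjusted limma p under 0.05 stand against 2756 of the 13662 kept probes in this contrast. Of 13 kept genes for the degradation of Cip/Kip proteins, 2 were called higher and 0 lower: Cul4a, a scaffold of the ubiquitin ligase that targets p21 (0.24, limma adjusted p = 0.0323), and the deubiquitinase gene Usp19 (0.22, adjusted p = 0.0391). Their calls were lost in 6 and 11 of the 16 fits that each leave out an array, and the median of the list was -0.02. Among 8 cyclins and CDKs, limma called 0 (0 at an unadjusted p under 0.05, median 0.04), with Ccne1 at 0.21 (adjusted p = 0.284) and Cdk3 at 0.16 (adjusted p = 0.478). Among 11 pocket proteins and E2F factors it called 0 (2 at an unadjusted p under 0.05, median 0.06), with Rbl2 at 0.26 and E2f5 at -0.25 (adjusted p = 0.073). The INK4 inhibitors, which act on the kinases of cyclin D, had 0 calls among 3 (0 at an unadjusted p under 0.05, median 0.02), with Cdkn2d at -0.17 (adjusted p = 0.258) and Cdkn2b at 0.09.

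Of 35 listed genes of dividing cells, 14 had a kept probe, with 0 limma calls. Of these 14, 2 had an unadjusted p under 0.05, against 2756 of the 13662 kept probes. The median difference of the 14 was -0.08, and 10 lay below 0 and 4 above. The extremes were Plk1 at -0.33 (adjusted p = 0.108) and Cdc20 at 0.27 (adjusted p = 0.209).

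**Figure D5:**
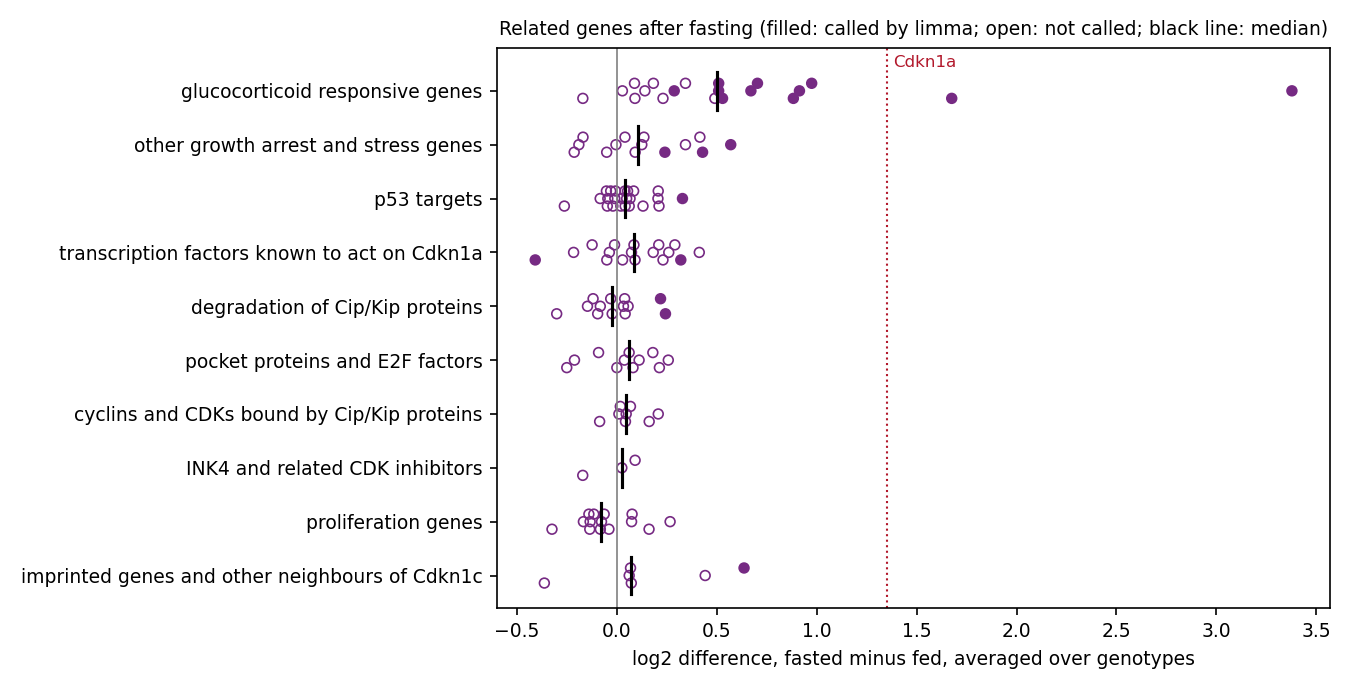
Fasted minus fed log2 differences, averaged over genotypes, of the kept genes of the 10 lists, 1 point per gene, filled where called, with list medians as black lines and Cdkn1a at 1.35 as a dotted line. The glucocorticoid responsive genes reach 3.38 with a median of 0.50, and the medians of the other lists lie between -0.08 and 0.11.

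The genes around each inhibitor were read from the order of genes in RefSeq (GRCm38.p6), taking the 5 nearest kept protein-coding genes on each side. Fasting averaged over genotypes called 4.19% of all kept probes, and counts out of 10 genes are too small to be told from that share. Beside Cdkn1a on chromosome 17, 0 of 10 were called in this contrast, with differences between -0.27 (Pim1) and 0.30 (Pnpla1). Beside Cdkn1b on chromosome 6, 0 of 10 were called, between -0.18 and 0.24. Beside Cdkn1c on chromosome 7, 1 of 10 was called, Th, the gene of tyrosine hydroxylase (0.64, limma adjusted p = 0.0175), which is also among the dopamine neuron transcripts above. It was likewise the 1 call among the 6 kept genes listed as imprinted genes and other neighbours of Cdkn1c, whose median was 0.07. The imprinted neighbour Igf2 differed by 0.44 (SE 0.40, adjusted p = 0.574).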

How the data were processed

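Hypothalamic RNA was labelled as biotinylated cRNA and hybridised to 16 Illumina mouse bead arrays, 4 per group, with groups and replicate numbers taken from the sample titles. The deposited table holds log2 intensities. The submitters' processing notes name limma without its role. How the background was corrected and the arrays normalized before deposition is not given in the sources used here. Sorted columns differed by at most 0.0345, so the arrays share nearly 1 distribution and a shift of most transcripts in 1 direction would not show. Precision is limited by the number of arrays.

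Symbols came from the platform annotation, which gave 23978 probes a single symbol and 1719 no symbol, and 0 symbols changed through a RefSeq gene table of GRCm38.p6. A linear model with 1 coefficient per group and 12 residual degrees of freedom was fitted (limma 3.58.1, R 4.3.3), its variances were moderated by empirical Bayes along an intensity trend, and the procedure was tested on simulated data. A gene of a list was read from its brightest kept probe. The text names every probe of the 3 inhibitors, and per list and contrast up to 4 called members with the smallest p, or 2 where none was called. Outside that rule, and after their values were seen, it names the other called glucocorticoid responsive genes and the uncalled Per1, Dusp1, Mdm2, Ccng1, Gadd45a, Btg1 and Igf2. The members, the lists and the tests were chosen with earlier results of these data known.

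Alternatives were the filter (none, or the 75th percentile), quantile normalization once more, median centring, no trend, array weights, the compared groups alone, 1 probe per gene, 2 covariates (dopamine transcripts, or the Actb probe with the lowest level minus that with the highest), the replicate number as a block, and leaving out each array. Chosen after seeing the data were leaving out the 2 arrays with the highest Gh and Prl, leaving out both AgRP+/- arrays numbered 3, and the mural and meningeal markers as a covariate. Same-numbered arrays of different groups had deviations that correlated between -0.187 and 0.299, above 0.1 in 7 of 24 pairs, so the numbers were not taken to pair the samples.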

Additional observations from a re-analysis of the deposited data

Results flagged for a closer look

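Cdkn1a on AgRP+/- fed replicate 3 read 7.46 with ILMN_2634083, apart from the other 3 AgRP+/- fed arrays at 6.71 to 6.81. The gap was 0.868 of the range of the group, above Dixon's 95% critical value for 4 samples. It was the only one of 28 groups of probe and condition to exceed it, and chance alone gives about 1 in 20, or 1.4 of 28. ILMN_2846775 was also highest on this array within its group (6.28), whereas ILMN_2846776 was not (4.98). Without both AgRP+/- arrays numbered 3 the fasting difference in AgRP+/- mice was 1.82 (SE 0.19), against 1.32 (SE 0.26) with all arrays. Fed replicate 3 was the highest array of its group for 6 of the 20 glucocorticoid responsive genes, 10 of the 14 other growth arrest and stress genes and 30.3% of all kept genes. That array was also the highest for 8 of the 11 hypothalamic markers, and for 0 of the 9 oligodendrocyte markers. The share among the stress genes was thus not particular to them. The cause was not tested.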

How the results depend on the processing

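The fasting differences of the 3 Cdkn1a probes stayed above 0 under every alternative run, and ILMN_2634083 gave 1.31 to 1.48 in AgRP-/-, 1.04 to 1.64 in AgRP+/- mice and 1.21 to 1.51 in the average when each array was left out. No genotype, interaction or Cdkn1c value passed the threshold under any alternative. Several small values changed sign. The interaction of ILMN_2634083 was -0.11 with array weights, -0.017 with the dopamine covariate and -0.43 without both AgRP+/- arrays numbered 3, and -0.26 to 0.35 over left-out arrays (that of ILMN_2846775 -0.25 to 0.19, and 0.0063 without the pituitary arrays). The genotype difference of ILMN_2634083 ran from -0.59 to 0.015 in fasted, -0.41 to -0.16 in fed and -0.46 to -0.16 in the average, reversing in fasted mice without AgRP+/- fasted replicate 1. ILMN_2846775 gave -0.35 to 0.091 in fasted and -0.17 to 0.028 in fed mice (0.028 also without both arrays numbered 3). ILMN_2846776 gave -0.045 to 0.21 in fed mice (-0.081 without the pituitary arrays) and -0.19 to 0.010 in the genotype average (0.011 with the Actb covariate). Cdkn1c in AgRP+/- mice was -0.040 with the dopamine covariate or without the pituitary arrays, and -0.040 to 0.33 over left-out arrays, lowest without AgRP+/- fed replicate 2. Its genotype difference in fed mice was -0.055 with array weights and -0.016 with the mural covariate, and -0.13 to 0.28 over left-out arrays. Leaving out each array gave Cdkn1c 0.44 to 0.85 for fasting in AgRP-/-, 0.29 to 0.50 for the fasting average, 0.44 to 0.76 for genotype in fasted mice, 0.22 to 0.43 for the genotype average and 0.30 to 0.70 for the interaction. Counts of called probes moved more. Fasting in AgRP-/- mice called 53 probes, and 29 without the trend, 143 with array weights, 1 with the dopamine and 83 with the Actb covariate, 87 with the compared groups alone and 27 to 73 over left-out arrays. Fasting in AgRP+/- mice called 103, and 19 with the dopamine and 63 with the Actb covariate, 45 without the pituitary arrays, 30 with the compared groups alone and 41 to 107 over left-out arrays. The fasting average called 572, and 33, 176 and 301 to 560 with the dopamine covariate, the Actb covariate and left-out arrays. Genotype called 2 in fasted mice (1 without the trend, with 1 probe per gene, or with the dopamine or mural covariate, and 1 to 3 over left-out arrays), 1 in fed mice (0 with 1 probe per gene, 1 to 2 over left-out arrays) and 4 in the average (1 without a filter, with the stricter filter, with the Actb or mural covariate or without both arrays numbered 3, 2 with the dopamine covariate, 7 without the pituitary arrays, 1 to 7 over left-out arrays). The interaction called 0, and 1 without both arrays numbered 3 (0 to 1 over left-out arrays). The replicate block, whose numbers do not pair the samples, moved the fasting calls in AgRP-/- mice to 90 and left the Cdkn1a difference there at 1.39 (SE 0.26). The cause of these moves was not tested. Of the 20 glucocorticoid responsive genes, 3 were called with the dopamine and 7 with the Actb covariate. Other growth arrest and stress genes, degradation genes and transcription factors had 0 calls with either. Dim values limit ILMN_2846776, Itgad in fed mice and all Cdkn1b probes.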
